A study of Mus musculus with 8 samples.

Results

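The 81 genes described here encode the proteins of the cytosolic ribosome. They were taken from the 31053 genes of the deposited matrices by name: symbols made of Rps or Rpl and a number, with the paralogue suffixes that the naming uses, plus Rpsa, Rplp0, Rplp1 and Rplp2, and with at least 100 unique molecular identifiers (UMIs, one per captured RNA molecule) over both matrices. The name rule gave 83 genes. Rpl10l with 0 UMIs and Rpl3l with 31 UMIs did not reach the minimum, and Rpl39l with 114 UMIs lay just above it. Of the 81 members, 32 belong to the small subunit and 49 to the large subunit, and 77 are the usual ribosomal proteins. The other 4 are paralogues: Rpl22l1, Rps27l, Rpl7l1 and Rpl39l. The members lie on 19 chromosomes, and all 81 were found in the mouse annotation (GENCODE, GRCm38) as protein-coding genes.

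A ribosome joins a small subunit, which reads the messenger RNA, to a large subunit, which forms the peptide bond. Each subunit holds a set of proteins on a scaffold of ribosomal RNA, and the cell makes these proteins in matched amounts. Their mRNAs are among the most abundant of growing cells and begin with a short run of pyrimidines, the 5′ terminal oligopyrimidine (TOP) tract, through which nutrient and growth factor signals acting by mTOR control their translation. In cartilage and disc, growth after birth is a time of heavy matrix protein synthesis.

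Cells came from whole intervertebral discs of the lumbar spine and the tail of Tagln-CreERt2;R26tdTomato mice, in which tamoxifen activates a Cre driven by Tagln, the gene of the smooth muscle protein transgelin, and Cre switches on tdTomato. Both age groups received tamoxifen at postnatal day 5. Discs were taken at postnatal day 10 (P10) or at 8 weeks, with 4 samples per age among the 8, and every group carries the Cre and received tamoxifen. The series asks about the contribution of Tagln-expressing progenitors to the nucleus pulposus (NP), the gel-like core of the disc that derives from the notochord. The files hold 1 gene matrix per age, in which cells cannot be tied to the 4 samples, so each age counts as 1 library, a library effect and an age effect cannot be told apart, and the ages could not be compared by a test.

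The P10 library held 7690 barcodes and 143203550 UMIs, of which 6999 cells with a median of 18300 UMIs were kept. The 8-week library held 7597 barcodes and 115097999 UMIs, and 6350 cells with a median of 14689 UMIs were kept. The ages shared 12 barcodes. Cells were clustered without the member genes and clusters were named from marker lists, so that every name means "like" the type. The classes of 100 or more cells at each age were NP-like (305 and 2301 cells at P10 and 8 weeks), chondrocyte-like (4777 and 677), hypertrophic-like (hypertrophic chondrocytes, 272 and 755), tendon-like (tendon fibroblasts, 872 and 928) and endothelial-like (120 and 133). Except for endothelial-like cells, which were all of cluster 16, the ages of a class lay mostly in different clusters: NP-like cells in 18 and 0 at P10 and in 0 and 6 at 8 weeks, chondrocyte-like cells in 1, 2, 3 and 8 and in 10, hypertrophic-like cells in 15 and in 9, and tendon-like cells in 7 and in 5. All intervals are exact 95% intervals for counting error only, and cells of 1 library are not replicates.

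The members took up 26.4% of all UMIs of the kept cells at P10 and 13.3% at 8 weeks. These sums mix classes in different numbers: chondrocyte-like cells were 4777 of 6999 cells at P10 and 677 of 6350 at 8 weeks. They also hold cells of clusters that the marker lists did not name, 57 at P10 (share 28.1%) and 1299 at 8 weeks (10.7%). In NP-like cells the P10 share of 24.2% (Clopper-Pearson interval 24.203 to 24.3%) stood against 15.5% (15.474 to 15.496%) at 8 weeks, which is -0.65 on the log2 scale. Chondrocyte-like cells went from 29.01% (28.998 to 29.015%) to 13.8% (13.818 to 13.858%), or -1.07 on that scale, the largest difference of the 5 classes. All 5 classes had a lower share at 8 weeks. The share was 24.6% and 14.0% in hypertrophic-like cells (-0.81) and 15.3% and 9.21% in tendon-like cells (-0.74). Tnmd and Thbs4 led the tendon-like cluster of P10, and Angptl7 and Igfbp6 that of 8 weeks. Endothelial-like cells had 20.1% and 13.7% (-0.56). The difference between ages was thus as large as 2.10-fold in chondrocyte-like cells and 1.47-fold in endothelial-like cells, and tendon-like cells had the lowest share of the 5 classes at both ages.

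The members gave fewer UMIs per cell at 8 weeks, while the number from other genes differed less. Per kept cell, the members gave 5366 UMIs at P10 and 2302 at 8 weeks, and all other genes gave 14935 and 14950. The kept cells of the ages differ in their make-up by class. Within each of the 5 classes other genes gave fewer UMIs per cell at 8 weeks. In NP-like cells the members gave 5358 and 2952 UMIs per cell, and other genes 16751 and 16111. In chondrocyte-like cells the members gave 6137 and 2252, and other genes 15019 and 14021. In hypertrophic-like cells UMIs of other genes were fewer by more, with 27458 per cell at P10 and 18542 at 8 weeks, beside 8944 and 3017 from the members. Tendon-like cells gave 2591 and 1342 member UMIs beside 14312 and 13234 others, and endothelial-like cells 4516 and 2346 beside 17902 and 14781. These are captured molecules per droplet, so fewer transcripts per cell and a lower capture cannot be told apart.

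**Figure D1:**
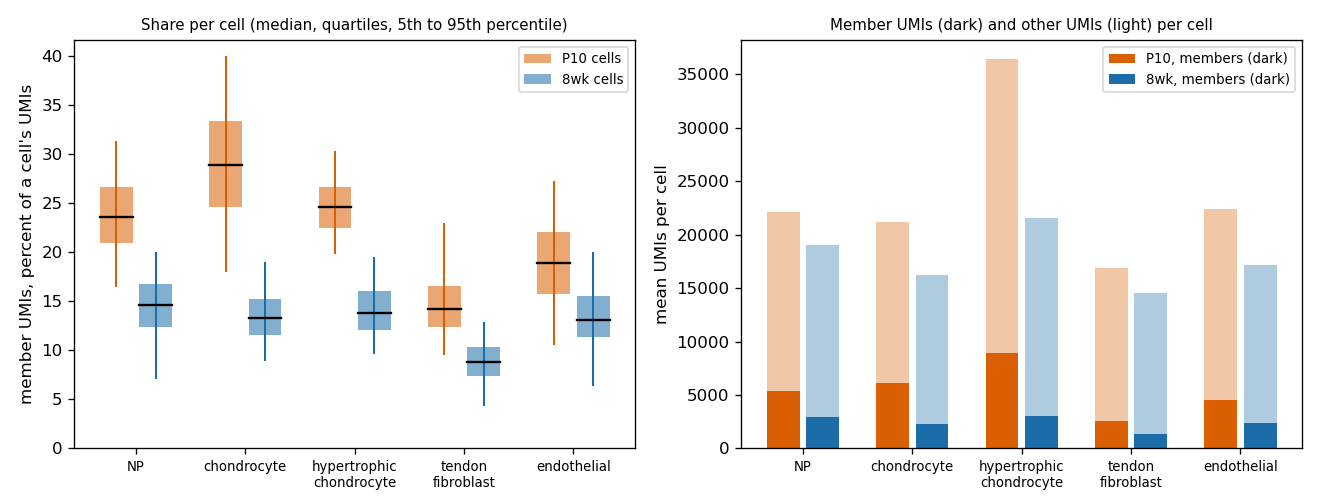
Left, percent of a cell's UMIs that came from the 81 members, by class (x axis) and age; boxes span the quartiles, black lines are medians and thin lines run from the 5th to the 95th percentile of cells. Right, mean UMIs per cell, with member UMIs in dark and all other UMIs in light colour; in each of the 5 classes the 8-week box lies lower, and the dark part shrinks from 5358 to 2952 UMIs in NP-like cells and from 6137 to 2252 in chondrocyte-like cells.

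Single cells of the ages overlapped by an amount that depended on the class. The part of 8-week cells below the P10 5th percentile was 96.2% in hypertrophic-like and 92.2% in chondrocyte-like cells. It was 72.5% in NP-like, 63.6% in tendon-like and 20.3% in endothelial-like cells. The median share per cell was 23.6% at P10 and 14.6% at 8 weeks in NP-like cells, with quartiles of 20.9 and 26.7% and of 12.4 and 16.8%. Of the 8-week NP-like cells, 99.4% lay below the P10 median. That percentage was 100% in chondrocyte-like cells, 99.7% in hypertrophic-like cells, 97.8% in tendon-like cells and 89.5% in endothelial-like cells, the class with the widest overlap. The cells of an age share a library, so these percentages describe cells and not animals.

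The smaller classes went the same way. Mural-like cells, the contractile cells of vessels, had 18.9% at P10 (50 cells) and 9.44% at 8 weeks (32 cells). Osteoblast-like cells had 25.02% (29 cells) and 12.7% (95 cells), macrophage-like cells 16.5% (15 cells) and 11.3% (39 cells), and connective fibroblast-like cells 19.6% (277 cells) and 9.17% (23 cells). Neutrophil-like cells had the nearest values, 17.9% (162 cells) and 15.9% (67 cells). Their cluster was mixed: the quartiles of its P10 cells were 3.19% and 22.4%, so its summed share describes neither kind of cell.

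Within P10 chondrocyte-like cells the share differed by cluster. It was 35.1% in cluster 2, which had Ptx3 and Ucma (a secreted protein of the upper growth plate) among its leading genes. Ucma was also a leading gene of cluster 1. In cluster 13, with Eln (elastin) and Gdf5 (a growth factor of joint and articular cartilage) among its leading genes, the share was 19.9%. The clusters 1, 3, 8 and 11 lay between, at 26.9%, 28.1%, 29.9% and 27.6%. At 8 weeks clusters 10 and 25 had 13.8% and 14.0%, so that the highest 8-week value was below the lowest P10 value. In NP-like cells the clusters 18, 0 and 19 ranged from 23.0 to 24.9% at P10 and the clusters 0, 6, 19 and 26 from 14.2 to 16.3% at 8 weeks. Cluster 0 held cells of both ages, 57 at P10 and 1247 at 8 weeks, and had shares of 24.9% and 15.4%. Cluster 19 also held both, 43 and 136 cells, with 23.0% and 14.2%. In both of these clusters the member share was lower at 8 weeks. Their cells were not matched in depth or state, and age and library cannot be told apart.

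The share also differed between NP-like and other cells in an order that depended on age. At P10 NP-like cells had a lower share than chondrocyte-like cells (24.2% against 29.01%), and at 8 weeks a higher one (15.5% against 13.8%). With the UMIs of the 100 most abundant other genes left out of the total, the 8-week order was lost, at 20.85% in both classes, and the P10 values were 31.8% and 42.2%. Chondrocyte-like cells of 8 weeks were shallower than NP-like cells by median (14910 against 15449 UMIs), and those of P10 deeper (19441 against 17519). Of the 5 classes, tendon-like cells had the lowest share at both ages beside the most collagen UMIs, 20.02% of all UMIs at P10 and 16.2% at 8 weeks, against 1.29% and 0.717% in NP-like cells and 10.6% and 4.88% in chondrocyte-like cells. The part of collagen in these shares was not tested beyond leaving its UMIs out of the total.

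Within NP-like cells the share was lowest in the shallowest cells at both ages, by more at 8 weeks. The shallowest, middle and deepest tertiles by UMI count had 23.8%, 24.3% and 24.3% at P10, and 12.9%, 15.3% and 15.95% at 8 weeks. The shallowest tertile of 8 weeks had a median of 5397 UMIs and the deepest a median of 27325. Cells with at least 10 UMIs of WPRE4, one of the exogenous sequences that the authors counted, whose transgene the labels do not name, had 24.3% (204 cells) against 24.0% (101 cells) without at P10, and 16.1% (1287 cells) against 14.6% (1014 cells) at 8 weeks. These 8-week groups had median depths of 15439 and 15488 UMIs, and their per-cell quartiles of 13.0 and 17.3% and of 11.4 and 16.1% overlapped. Among cells of at least 5000 UMIs the shares were 16.2% and 14.7%, with median depths of 16954.5 and 18497.5. Cells with at least 1 TDT (tdTomato) UMI had 16.1% against 15.1% at 8 weeks, and 24.9% against 23.9% at P10, and were deeper than the others at both ages. Cells with at least 2 UMIs of cell cycle genes had 15.8% against 15.4% at 8 weeks and 24.0% against 24.4% at P10. The 8-week medians per cell went the other way, 14.4% against 14.7%, and the cells with these UMIs were deeper (medians of 28581 against 14134 UMIs at 8 weeks, and 28430 against 14477 at P10). These are ranges of a per-cell measure in 1 library per age, and they were not tested.

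Gene by gene, most members were lower together. Of the 81 members, 80 had at least 100 UMIs in the 2 sums of a class, Rpl39l being the exception, and in NP-like cells 49 of these 80 were lower by at least 1.5-fold at 8 weeks. The same call was met by 7.22% of the 11323 genes measured there. In chondrocyte-like cells 74 of 80 were lower by at least 1.5-fold (13.8% of all genes measured), in hypertrophic-like cells 65 (12.8%), in tendon-like cells 56 (12.4%) and in endothelial-like cells 29 (6.73%). No member was higher by that factor in NP-like (35.3% of all genes), chondrocyte-like (40.4%), hypertrophic-like (40.4%) or tendon-like cells (31.6%), and 1 was in endothelial-like cells (20.6%), namely Rps27l. The members' median log2 ratio was -0.66 for NP-like, -1.06 for chondrocyte-like, -0.80 for hypertrophic-like, -0.72 for tendon-like and -0.55 for endothelial-like cells. The median over all genes was 0.35, 0.38, 0.38, 0.24 and 0.18 in the same order. Shares of 1 total are tied, so a lower member share raises that of the other genes by arithmetic, by 0.16 in NP-like cells. With the members taken out of the total, the median of the other genes was 0.20, 0.11, 0.20, 0.15 and 0.08. Of the 80 members, 79 lay below the class median gene in all 5 classes, against 25.7% of all 5613 genes measured in all 5.

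**Figure D2:**
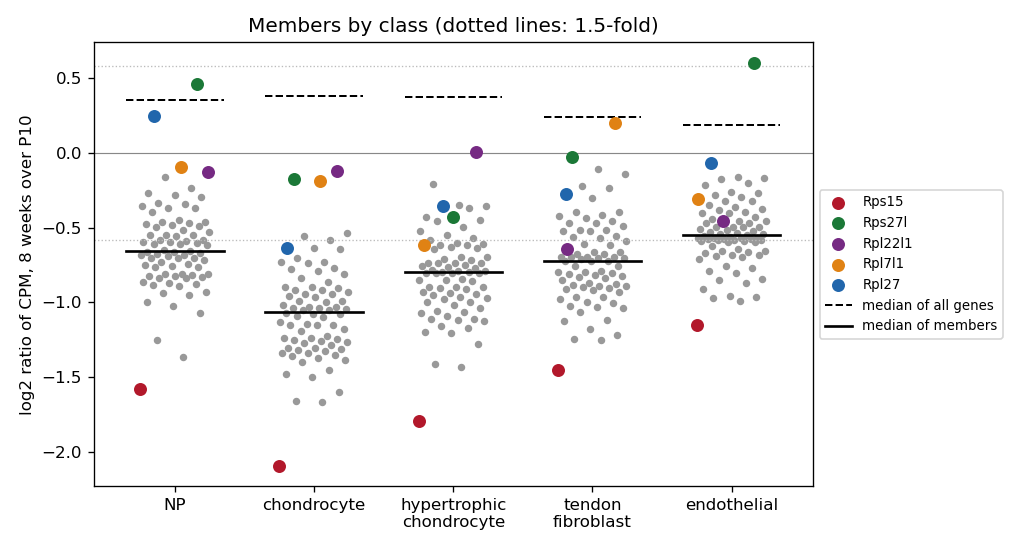
Log2 ratio of CPM (UMIs per 1000000 gene UMIs of the class), 8 weeks over P10, for each of 80 members (points) in the 5 classes (x axis); the solid line is the members' median, the dashed line the median of all genes and the dotted lines 1.5-fold, with 5 members coloured. The members' medians run from -1.06 in chondrocyte-like to -0.55 in endothelial-like cells, Rps15 is lowest in every class, and Rps27l lies above 0 in NP-like and endothelial-like cells.

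Both subunits moved alike. The median log2 ratio of small-subunit members was -0.68 and that of large-subunit members -0.63 in NP-like cells, and -1.06 and -1.06 in chondrocyte-like cells. The small subunit held 43.1% (P10) and 41.9% (8 weeks) of member UMIs in NP-like cells, and 45.2% and 44.9% in chondrocyte-like cells. Over the 10 groups of class and age the part of a single member in all member UMIs had a median log2 range of 0.55, and 75 of the 80 measured members stayed within a range of 1. The 5 that did not were Rps27l (1.53), Rpl22l1 (1.39), Rpl7l1 (1.1998), Rps15 (1.12) and Rpl27 (1.09), of which 3 are paralogues. Relative to the other members, 21 were lower at 8 weeks in all 5 classes and 22 were higher in all 5.

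Rps15, a small-subunit protein close to the decoding site, was the member with the lowest ratio in every class. In NP-like cells it had 1990 UMIs per 1000000 gene UMIs (CPM, which is not divided by transcript length) at P10, and 664 at 8 weeks. The log2 ratio was -1.58 (interval -1.61 to -1.55). In chondrocyte-like cells it went from 2239 to 524 CPM, a log2 ratio of -2.10. The ratios were -1.80 in hypertrophic-like, -1.45 in tendon-like and -1.16 in endothelial-like cells.

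By the mean log2 ratio over the 5 classes, Rpl23a, Rpl14, Rpl13a, Rpl17 and Rps12 followed. Rpl23a, which binds at the exit of the peptide tunnel, went from 1248 to 524 CPM in NP-like cells (log2 ratio -1.25) and from 1286 to 424 in chondrocyte-like cells (-1.60). The antisense neighbour Tlcd1 had 2.94% of the UMIs of Rpl23a in the files. Rpl14, of the large subunit, went from 1982 to 974 CPM in NP-like cells (-1.03) and from 2989 to 1056 in chondrocyte-like cells (-1.50). Rpl13a, one of the 5 members with the fewest UMIs, went from 374 to 145 CPM (-1.37) in NP-like cells and from 418 to 164 (-1.35) in chondrocyte-like cells. Rps12 went from 4272 to 2317 CPM (-0.88) and from 6446 to 2598 (-1.31). Rpl17 was among the lowest members in chondrocyte-like cells, from 4109 to 1291 CPM (-1.67), and was less low in NP-like cells (-0.87).

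Some members were lowered unevenly over the classes. Rpl28, of the large subunit, went from 4412 to 1397 CPM in chondrocyte-like cells (log2 ratio -1.66) and from 4115 to 2564 in NP-like cells (-0.68). Rpl41, the smallest of the proteins, went from 5335 to 2503 CPM in chondrocyte-like cells (-1.09) but from 5403 to 4275 in NP-like cells (-0.34). Rps15a, of the small subunit, went from 3743 to 3186 CPM in NP-like cells (-0.23) and from 3748 to 1948 in chondrocyte-like cells (-0.94). In NP-like cells these 3 kept a larger part of their P10 level. Rps2, which lies at the mRNA entry of the small subunit, was among the lowest in tendon-like cells, from 4270 to 1799 CPM (-1.25), as was Rpl38, from 2065 to 886 (-1.22). Rps28 was among the least lowered in endothelial-like cells, from 779 to 694 CPM (-0.17), and went from 1336 to 674 in chondrocyte-like cells (-0.99).

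Among the most abundant members were Rplp0, Rpl13, Rplp1 and Rpl23, and the top 10 held 22.7% of all member UMIs. Rplp0 is the base of the stalk on which the GTPases of translation act, and Rplp1 and Rplp2 form the rest of it. Rplp0 went from 7219 to 4243 CPM in NP-like cells (-0.77) and from 7398 to 3577 in chondrocyte-like cells (-1.05). Rplp1 went from 5736 to 3836 (-0.58) and from 6675 to 4030 (-0.73), and Rplp2 from 1993 to 1393 (-0.52) and from 2391 to 1535 (-0.64). The stalk base was lower by a larger factor than its partners in NP-like, chondrocyte-like and endothelial-like cells, but in hypertrophic-like cells Rplp0 had -0.55 and Rplp1 -0.74. Rpl13, of the large subunit, went from 5958 to 4136 CPM (-0.53) in NP-like cells and from 7394 to 3798 (-0.96) in chondrocyte-like cells.

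Rps6, the small-subunit protein phosphorylated by the S6 kinases, went from 1837 to 1312 CPM in NP-like cells (-0.49) and from 2352 to 1339 in chondrocyte-like cells (-0.81). Rpsa, a small-subunit protein also known as the laminin receptor, went from 5487 to 2876 CPM in NP-like cells (-0.93) and from 3533 to 1773 in endothelial-like cells (-0.99), the second lowest member there. Rps27a, made as a fusion with ubiquitin, went from 3995 to 2606 CPM in NP-like cells (-0.62). At the other end were Rpl30, from 2444 to 2186 CPM in NP-like cells (-0.16), and Rpl35a, from 2364 to 1949 (-0.28). Rpl27, another member of few UMIs, went from 625 to 740 CPM in NP-like cells (log2 ratio 0.25) and from 652 to 419 in chondrocyte-like cells (-0.64), the only member besides Rps27l with an interval above 0 in NP-like cells.

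**Figure D3:**
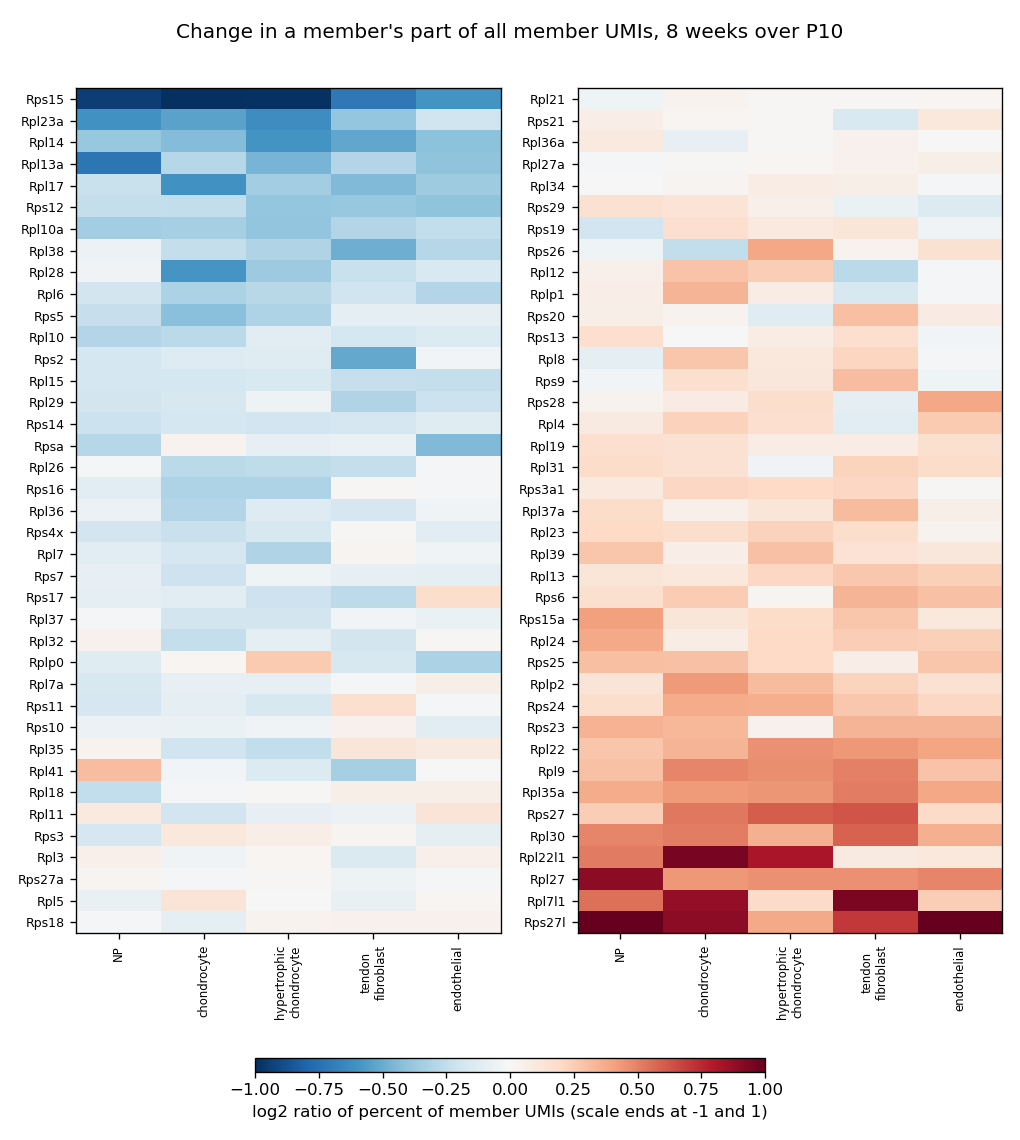
Log2 ratio, 8 weeks over P10, of each member's percent of all member UMIs in the 5 classes (columns), for 78 of the 80 measured members, sorted by their mean (rows, left panel first); red is higher and blue lower than the members as a whole, and colours end at -1 and 1. Rps15, Rpl23a, Rpl14 and Rpl13a are blue in all 5 classes, and Rps27l, Rpl7l1, Rpl27 and Rpl22l1 are red in all 5.

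The paralogues kept more of their level than their partners in most classes. Rps27l, a paralogue of Rps27 known as a target of p53, went from 222 to 307 CPM in NP-like cells (log2 ratio 0.46, interval 0.39 to 0.54) and from 198 to 302 in endothelial-like cells (0.61). Rps27 went from 1902 to 1444 CPM in NP-like cells (-0.40). In NP-like cells Rps27l thus made up 10.5% of the pair's UMIs at P10 (interval 9.97 to 10.98%), against 17.5% at 8 weeks (17.2 to 17.8%), and 9.11% and 16.4% in endothelial-like cells. In hypertrophic-like cells it did not follow this: Rps27l went from 294 to 218 CPM (-0.43), from 14.6% to 12.8% of the pair.

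Rpl22l1, whose partner Rpl22 binds RNA and represses it in mouse cells, was almost level with Rpl22. In NP-like cells Rpl22l1 went from 1350 to 1234 CPM and Rpl22 from 1384 to 1072, so that Rpl22l1 made up 49.4% of the pair at P10 and 53.5% at 8 weeks. In chondrocyte-like cells its part went from 42.5% to 53.0%, and in hypertrophic-like cells from 47.5% to 53.7%. In tendon-like cells it went the other way, from 39.3% to 33.8%, and in endothelial-like cells from 34.5% to 30.04%. Rpl22l1 was also the member that stood highest in NP-like cells against tendon-like cells, with a log2 ratio of 1.37 at P10 and 1.88 at 8 weeks. Rpl7l1, a paralogue of Rpl7, was rare, with 62.4 and 58.5 CPM in NP-like cells of P10 and 8 weeks, and made up 2.04% and 3.20% of its pair. Rpl39l, known from male germ cells, had 8 and 24 UMIs in NP-like cells of the ages. It had no UMI in tendon-like cells at P10 or in endothelial-like cells at 8 weeks, where the exact intervals reach up to 0.0126% and 0.0926% of its pair with Rpl39.

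**Figure D4:**
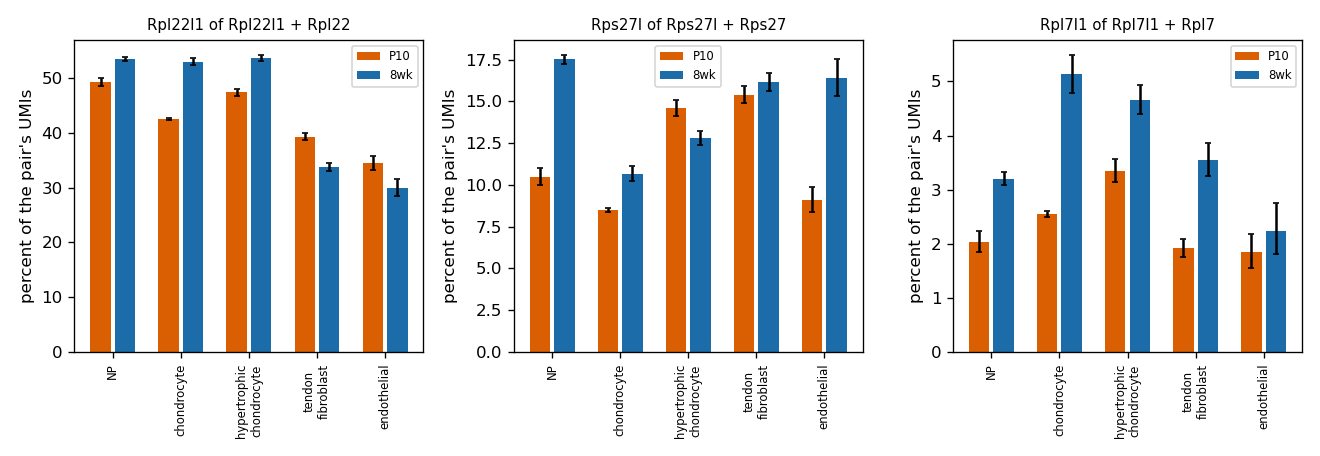
Percent of a pair's UMIs that belong to the paralogue, by class (x axis) and age, for Rpl22l1 with Rpl22, Rps27l with Rps27 and Rpl7l1 with Rpl7; bars are the summed counts of a class in 1 library and whiskers are exact 95% counting intervals. Rps27l is higher at 8 weeks in NP-like cells (10.5% and 17.5%) and endothelial-like cells (9.11% and 16.4%), and Rpl22l1 lies between 30.04% and 53.7%.

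NP-like cells were set against the 2 main other disc classes at each age. Against chondrocyte-like cells at P10, 5 of 80 members were lower by at least 1.5-fold (21.6% of all genes met this), led by Rps3a1 at -0.78, and none was higher (35.7%). The members' median was -0.25 there and that of all genes 0.25, and 79 of the 80 members lay below the median gene. At 8 weeks none was lower (20.4%) and 8 were higher (40.6%), led by Rpl28 (0.88), Rpl27 (0.82) and Rpl17 (0.78). Rpl28 overlaps Ube2s on the other strand, which had 10.4% of its UMIs. Against tendon-like cells 52 members were higher at P10 (39.4% of all genes) and 58 at 8 weeks (46.1%), with medians of 0.69 and 0.77. The medians over all genes measured there were 0.36 and 0.51, and relative to them only 9 members at P10 and 8 at 8 weeks were higher by that factor. Relative to the median gene, none was higher by that factor than in chondrocyte-like cells at 8 weeks.

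The starts of the member genes were read from the RefSeq promoter table (GRCm38.p6), since the pyrimidine run at the start of the mRNA is the feature the genes are known to share. The table held 61 of the 81 members. In the 70 bases from 20 before to 50 after the annotated start, on the gene's strand, 73.8% of these 61 had a run of at least 8 C or T, against 25.4% of all 27025 promoters, and 62.3% had a run of at least 10, against 11.9%. On the opposite strand, counted as runs of A or G, the shares were 11.5% against 28.0% and 4.92% against 13.1%. The letters CCGGAAG, the core of an ETS factor site, were found on either strand in the 300 bases of 41.0% of the members and 9.12% of all promoters. The window and the run lengths were chosen after these sequences had been looked at. The lines below give 30 bases at the longest pyrimidine run, in capitals, of Rps15, Rpl14 and Rpl13a from the low end, of Rps6 and Rpl13, of the paralogues Rps27l and Rpl22l1 with their partners and of Rpl27 from the high end, so that the runs can be compared. Where runs tie, the first is marked.
Rps15: agcccgtaCTTCCTTTTCCgagtaaccgcc
Rpl14: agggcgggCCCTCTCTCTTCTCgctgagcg
Rpl13a: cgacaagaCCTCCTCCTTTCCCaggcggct
Rps6: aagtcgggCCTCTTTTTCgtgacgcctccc
Rpl13: tgacgtcaCTTCCCTTTCgcctgattttga
Rps27: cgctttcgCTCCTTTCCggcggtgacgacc
Rps27l: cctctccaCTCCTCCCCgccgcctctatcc
Rpl22: acagccgaCTTCgccctgggaaaagcaata
Rpl22l1: caagcccgTTCTCTTCCCacggctgcagct
Rpl27: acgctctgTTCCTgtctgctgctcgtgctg
The Rps15 window lies at chr10:80292448-80292477 on the plus strand, that of Rpl14 at chr9:120571501-120571530 on the plus strand and that of Rpl13a at chr7:45128722-45128751 on the minus strand. Rps6 lies at chr4:86857347-86857376 (minus), Rpl13 at chr8:123102326-123102355 (plus) and Rps27 at chr3:90213629-90213658 (minus). The windows of Rps27l at chr9:66946066-66946095 (plus), Rpl22 at chr4:152325702-152325731 (plus), Rpl22l1 at chr3:28805501-28805530 (plus) and Rpl27 at chr11:101442230-101442259 (plus) complete the set.

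The run was 14 bases in Rpl14 and Rpl13a, 11 in Rps15, 10 in Rps6, Rpl13 and Rpl22l1, 9 in Rps27 and Rps27l, 5 in Rpl27 and 4 in Rpl22. In Rpl7l1, not shown, it was 3, with a longer run just before the window. The RefSeq start is not always the start that cells use, and a run outside the window is missed. Over the members with an entry and a ratio, 45 with a run of at least 8 had a median of the mean log2 ratio over the 5 classes of -0.75, from -1.62 to 0.09, and 15 with a shorter run had -0.65, from -1.09 to -0.20. The ranges of the groups overlapped.

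Other genes of the translation machinery were read from lists fixed with earlier results known. Of all genes measured, 7.22% were lower by at least 1.5-fold in NP-like cells and 13.8% in chondrocyte-like cells. The medians over all genes were 0.35 and 0.38. Among elongation and termination factors 6 of 9 measured genes were lower by at least 1.5-fold at 8 weeks in NP-like cells and 6 of 9 in chondrocyte-like cells, with medians of -0.62 and -0.95. Eef1a1, which brings aminoacyl-tRNA to the ribosome, went from 7778 to 4957 CPM in NP-like cells (-0.65) and from 8344 to 4074 in chondrocyte-like cells (-1.03). Eef2, the translocase, went from 1667 to 1001 CPM (-0.74) in NP-like cells. Of 8 ribosomal and ribosome-bound proteins with other names, 3 were lower in NP-like cells (median -0.54) and 5 in chondrocyte-like cells (-0.72). Fau (a small-subunit protein made as a fusion) went from 4023 to 2700 CPM (-0.58) in NP-like cells and from 3680 to 1462 (-1.33) in chondrocyte-like cells. Tpt1, a growth-related protein whose mRNA also carries a TOP tract, went from 7118 to 5029 CPM (-0.50).

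Initiation factors differed less in these classes, with 3 of 30 lower and a median of -0.19 in NP-like cells and 5 lower and 4 higher with a median of -0.19 in chondrocyte-like cells. Of all genes, 7.22% were lower in NP-like cells, and in chondrocyte-like cells 13.8% were lower and 40.4% higher. Of the ribosome biogenesis list 1 of 29 was lower in NP-like cells (median -0.06) and 6 of 29 in chondrocyte-like cells (-0.16). Both lists were lower in more genes elsewhere: initiation factors in 13 of 30 in hypertrophic-like (median -0.52) and 11 of 30 in tendon-like cells (-0.39), and the biogenesis list in 11 of 29 (-0.42) and 10 of 28 (-0.43). Of all genes, 12.8% were lower in hypertrophic-like (median 0.38) and 12.4% in tendon-like cells (0.24). Npm1, the nucleolar chaperone of ribosome assembly, went from 1001 to 678 CPM (-0.56) in NP-like cells. Among proteins of the mitochondrial ribosome 5 of 77 were lower in NP-like cells (median -0.03), but 29 of 77 in chondrocyte-like cells (-0.49) and 39 of 77 in hypertrophic-like cells (-0.59). Of 17 regulators of mTOR and Myc, 8 were higher and 2 lower in NP-like cells, with a median of 0.52, beside 35.3% and 7.22% of all genes and their median of 0.35. Myc, the transcription factor that drives ribosome synthesis, went from 32.5 to 98.1 CPM in NP-like cells (1.59) and from 56.5 to 201.5 in chondrocyte-like cells (1.83). Eif4ebp1, the translation repressor that mTOR inactivates, went from 129 to 46.8 CPM in NP-like cells (-1.47), and Sesn3, a stress-induced inhibitor of mTOR, from 86.01 to 429 (2.32). Of 10 cell cycle genes 8 were lower in NP-like cells (median -0.88) and 10 higher in chondrocyte-like cells (0.93), while members were lower in both. Of the listed hosts of small nucleolar RNAs 2 were measured: Snhg6 was higher in NP-like cells (1.27) and Snhg12 had -0.28.

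Transcript length moved with the ratios. The members are short, with a median longest transcript of 914 nt. Among other genes of up to 800 nt the median log2 ratio was 0.06 for NP-like, -0.37 for chondrocyte-like, -0.40 for hypertrophic-like, -0.16 for tendon-like and -0.02 for endothelial-like cells, and among those over 4000 nt it was 0.56, 0.62, 0.65, 0.41 and 0.32. The members lay below the shortest group in every class. Other genes of at least 500 CPM and at most 1200 nt, of which 39 were measured, had medians of -0.29 in NP-like and -0.21 in chondrocyte-like cells, and 17.9% and 28.2% of them were lower by at least 1.5-fold, against 61.25% and 92.5% of the members. From 100 CPM up, the medians were -0.06 over 235 such genes in NP-like cells (11.9% lower), -0.41 over 236 in chondrocyte-like cells (36.02%) and -0.48 over 236 in hypertrophic-like cells (42.8%, against 81.25% of the members). The part of length in the result was not tested. Across the 80 members the mean log2 ratio over classes showed a correlation with the GC content of the longest transcript (Pearson's r -0.35, Spearman's rho -0.31) and little with its length (0.14 and 0.04); the points share both libraries and are not independent.

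**Figure D5:**
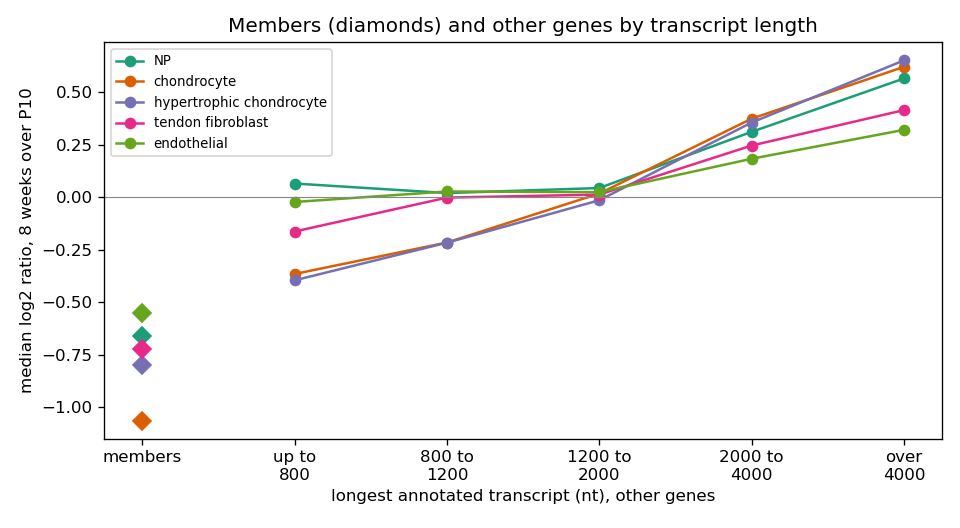
Median log2 ratio of CPM, 8 weeks over P10, of other genes grouped by their longest annotated transcript (x axis, nt; circles joined by lines, 1 colour a class) and of the members (diamonds at left). The other genes run from -0.37 to 0.62 in chondrocyte-like cells, and the members, at -1.06 there, lie below the shortest group in all 5 classes.

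Several values limit single members. Many ribosomal protein genes have processed copies in the genome, and how reads shared with such copies were counted is not given in the sources used here, so levels of single members are uncertain. Of the near copies that the matrices do list, Rpl36al held 19.5% as many UMIs as Rpl36a, Rpl27-ps3 2.11% as many as Rpl27, Rps27rt 1.80% as many as Rps27 and Rpl10-ps3 1.74% as many as Rpl10. In the NP-like class itself the ratio of Rpl36al was -0.11.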

How the data were processed

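Per the file headers, the authors made the matrices with Cell Ranger 3.1.0, and their deposited values are whole-number UMI counts; the submitters' processing notes name mm10, GRCm38 and Seurat 3, without a role. The files hold 1 matrix per age and no map from cells to samples. Cells were kept with at least 500 genes, 1000 UMIs and at most 15% mitochondrial UMIs. Scrublet in scanpy 1.11.5 called 2.02% of 8-week cells, which were removed. At P10 it called 0 cells and had not worked, so a score limit of 0.25 was tried. Counts were clustered (2000 variable genes, 30 components, resolution 1) without member genes. A class name needed at least 4 markers 2-fold higher and in 25% of a cluster, a rule set after clusters were seen. Counts were summed by class and age and given as CPM. Genes with at least 100 UMIs in a contrast were measured, and 1.5-fold is a description with no test. Intervals are exact (binomial) and cover counting error only. The ratio code was tested on simulated data. Named genes are the paralogues with their partners, the most and least abundant members, the 4 highest and 4 lowest members of each age contrast, those with the widest range over classes, and list members of most UMIs, of which the text gives a selection. The members and lists were chosen with earlier results of these data known. Other resolutions, filters, depths, doublet limits and totals were tried. A few genes that these rules name are not reported here, and the heatmap leaves 2 members out.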

Additional observations from a re-analysis of the deposited data

Results flagged for a closer look

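In 3 members the 8-week and P10 levels differed in opposite directions in different classes, each with a counting interval clear of 0; the difference between classes was not tested, since each age is 1 library. Rpl27, a large-subunit protein, had a log2 ratio of 0.25 in NP-like cells and -0.64 in chondrocyte-like cells. Its NP-like value lay below the median over all genes there, 0.35. Rpl7l1, the rare paralogue of Rpl7, had 0.20 in tendon-like cells and -0.62 in hypertrophic-like cells. Its tendon-like value also lay below the median over all genes there, 0.24. Relative to the median gene, neither Rpl27 nor Rpl7l1 was higher at 8 weeks in those classes. Rps27l, the paralogue of Rps27, had 0.61 in endothelial-like cells and -0.43 in hypertrophic-like cells.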

How the results depend on the processing

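The lower share at 8 weeks kept its direction in each class under every alternative run, while its size moved by more than the counting interval under most. In NP-like cells the log2 ratio was -0.72 both with cells thinned to 2000 UMIs and with cells weighted equally, -0.65 with each library clustered on its own, -0.64 with at least 5000 UMIs per cell, -0.65 without paralogues, -0.65 without collagen UMIs and -0.61 without the 100 most abundant other genes. In chondrocyte-like cells it was -1.27 with the stricter cell filter, -1.02 and -1.11 at resolutions 0.5 and 2, -1.02 with the doublet limit, -1.10 thinned, -1.14 with each library on its own, -1.10 with equal weights, -1.02 with members allowed in clustering, -1.16 without collagens, -1.06 without mitochondrial UMIs, -1.07 without paralogues and -1.02 without the 100 genes. In hypertrophic-like cells these were, in the order stricter filter, both resolutions, doublet limit, own clustering, equal weights, members allowed, collagens, mitochondrial, paralogues and 100 genes, -0.90, -0.94, -0.99, -1.01, -0.97, -0.81, -0.92, -0.82, -0.82, -0.82 and -0.71. In tendon-like cells they were -0.69 with the stricter filter, -0.75 and -0.63 at the resolutions, -0.60 with the doublet limit, -0.72 thinned, -0.64 with own clustering, -0.73 with deeper cells, -0.80 without collagens, -0.75 without mitochondrial UMIs and -0.67 without the 100 genes. In endothelial-like cells they were -0.55, -0.48, -0.46, -0.54, -0.51, -0.54, -0.56, -0.57 and -0.57 with the stricter filter, doublet limit, thinning, own clustering, equal weights, members allowed, deeper cells, without collagens and without mitochondrial UMIs. Over all cells they were -0.99 with the doublet limit, -1.03 thinned, -1.03 with equal weights, -0.98 with deeper cells, -1.06 without collagens, -0.99 without mitochondrial UMIs, -0.99 without paralogues and -0.97 without the 100 genes. The collagen and 100-gene totals were chosen after seeing the data. Classes were named anew in each clustering, so their cells changed too. With the stricter filter a cluster led by Cilp and Vcan (816 8-week cells, share 10.3%) was chondrocyte-like. In the main run a cluster led by these genes (948 8-week cells) was unnamed. Hypertrophic-like cells of 8 weeks numbered 755 in the main run. They numbered 110 at resolution 0.5, 135 with members allowed and 219 with own clustering.

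At 2-fold, members lower at 8 weeks numbered 5 in NP-like, 49 in chondrocyte-like, 18 in hypertrophic-like, 12 in tendon-like and 1 in endothelial-like cells. At 1.5-fold they numbered 74 in NP-like and 61 in endothelial-like cells relative to the median gene, and 19 in endothelial-like cells with the doublet limit. The shares of all genes under these choices are not given here, so the counts cannot be set against them. Over 9 choices of cells and classes the log2 ratio of Rps15 ran from -1.68 to -1.57 in NP-like and from -2.34 to -2.01 in chondrocyte-like cells, and that of Rps27l from 0.45 to 0.68 in NP-like cells. Rps27l in tendon-like cells (-0.12 to 0.02) and Rpl22l1 in hypertrophic-like cells (-0.00019 to 0.18) changed sign around 0, and Rps27l in endothelial-like cells (0.58 to 0.67) fell short of 1.5-fold with cells of at least 5000 UMIs, which left 0 members higher there. No paired analysis was possible because the cells cannot be tied to the samples, and for the same reason no sample could be left out in turn. Depth limits Rpl39l, whose 114 UMIs give no ratio.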
